A study of Mus musculus with 4 samples.

Results

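Stretches of chromatin carrying dimethylated lysine 4 of histone H3 (H3K4me2) were examined for LSD1 reads where no LSD1 peak had been called. Joining deposited H3K4me2 peaks less than or equal to 1 kb apart gave 23226 domains on autosomes. Among these, 10507 spanned 1 kb or more and under 5 kb, and 4 of them touched a peak of the control IgG library and were left out. Of the remaining 10503 domains, 7543 (71.8%) overlapped no LSD1 peak, and these are the domains described here. The other 2960 overlapped between 1 and 4 LSD1 peaks. The members were therefore chosen by the H3K4me2 reads that made the H3K4me2 peaks and by the absence of an LSD1 call. Their H3K4me2 level, and any deficit of LSD1 reads against domains with a call, follow in part from that choice and are given as descriptions.

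The cells were R1, a 129SV mouse embryonic stem cell line grown on gelatin with leukaemia inhibitory factor at 1000 U/ml and used at passages 13 to 18. Chromatin fixed with 1% formaldehyde was precipitated with an antibody that the labels name as anti-LSD1, with one against H3K4me2 or with control IgG, and DNA set aside before precipitation (Input) was sequenced as well. The name LSD1 follows that label: the catalogue number given beside it is known for an antibody of another supplier against a histone mark other than H3K4me2, and no value here checks the specificity. Each of the 4 groups held 1 library. The LSD1 library had 5833862 reads and the H3K4me2 library 6416657, while IgG had 4755619 and Input 3801082. There is therefore no replicate error and no p-value, and each value compares single libraries. Intervals are 95% intervals and cover counting error only.

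LSD1 is an amine oxidase that demethylates histone H3 where lysine 4 carries a single or a double methyl group, and it works in repressive complexes with the scaffold protein CoREST and with histone deacetylases. H3K4me2, its substrate, marks promoters and enhancers, both active and poised. In embryonic stem cells LSD1 is known for occupying enhancers of expressed genes and for shutting them down when the cells differentiate. No gene, exon or intron is named for any domain, because the gene annotation used here covers only a later build than the mm9 positions of these libraries.

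The 7543 domains held far more LSD1 reads than IgG reads although no LSD1 peak had been called in them. They spanned a median of 1602 bp (quartiles 1238 and 2146 bp) and 13.6 Mb in all. Their LSD1 density was 3.29 reads per 1000000 reads of the library per kb (RPM per kb), against 1.04 in IgG and 0.538 in Input. LSD1 over IgG was thus 3.17 (exact binomial interval 3.14 to 3.20), and the LSD1 to Input ratio was 6.12 (6.04 to 6.19). The control IgG was in turn 1.93 times Input (1.90 to 1.96) in these domains, so the choice of control sets the size of the LSD1 excess.

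The local background was read from 13023 windows of the same widths placed 10 kb beyond either end of the domains and touching no deposited peak. There the LSD1 density was 0.654 RPM per kb, against 0.612 in IgG and 0.536 in Input, so that LSD1 stood at 1.07 times IgG (1.06 to 1.08). The ratio in the domains was 2.97 times the ratio in these windows (2.93 to 3.01). H3K4me2 reads exceeded IgG 6.30-fold (6.25 to 6.35) in the domains and 1.11-fold (1.10 to 1.12) in the windows. Input was at nearly the same density in the domains as in the windows, with 0.538 and 0.536 RPM per kb, whereas IgG was higher in the domains.

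Together the domains contained 262031 LSD1 reads, or 4.49% of that library, against 1.42% of the IgG library. All 5106 called LSD1 peaks together contained 113004 LSD1 reads, or 1.94% of the library, against 0.436% of IgG. After the IgG share was subtracted, 3.07% of the LSD1 library remained in the domains without a call and 1.5% in the called peaks, a ratio of 2.05. The peaks covered 2.60 Mb, so that the excess in the domains was spread over a longer stretch of DNA at a lower density. The peaks were counted on all chromosomes, without the filters on IgG peaks, width and H3K4me2 that define the domains, so the sets are not alike. As whole domains, the 2960 mid-size domains with a call held 2.73% of the LSD1 library and 0.702% of IgG over 6.29 Mb.

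The excess was seen across most domains, not in a few. The median domain held 31 LSD1 reads (quartiles 24 and 42), 66 H3K4me2 reads (53 and 89), 8 IgG reads (5 and 11) and 3 Input reads (2 and 5). No domain lacked LSD1 reads, 16 lacked IgG reads and 502 lacked Input reads. With 0.5 reads added to both counts, LSD1 was at least 2-fold over IgG in 6623 of the 7543 domains (87.8%). Over all 23209 autosomal H3K4me2 domains of any width that touched no IgG peak, the same call was met by 82.0%, so the share is close to that of H3K4me2 domains in general. It was 98.3% in the mid-size domains with an LSD1 peak and 14.4% in the windows 10 kb away. By the exact interval lying above 1 in place of the fold, 84.2% of the domains passed, against 63.3% of all autosomal H3K4me2 domains, 98.8% of the domains with an LSD1 peak and 3.18% of the windows. Both calls depend on read counts, and all 23226 autosomal domains had medians of only 939 bp and 20 LSD1 reads. Among the domains without an LSD1 peak, the 2-fold share was 85.0% at 1 to 1.5 kb and 94.8% at 3 to 5 kb. The pooled LSD1 to IgG ratio was 3.19 in both of these width classes. Against Input, LSD1 was at least 2-fold higher in 98.4% of the domains, against 95.3% of all autosomal H3K4me2 domains, 100% of those with an LSD1 peak and 20.2% of the windows. By the same fold, IgG exceeded Input in 46.0% of the domains, against 50.2% of all autosomal H3K4me2 domains, 63.8% of those with an LSD1 peak and 20.8% of the windows.

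The single-domain LSD1 to IgG ratio had a median of 3.08, with quartiles of 2.39 and 4.08. Most of that spread was of the size that counting alone gives. The variance of the LSD1 share of LSD1 plus IgG reads was 1.12 times the binomial variance over the 7543 domains, and 1.10 times without the 121 domains whose Input density was above 3 times the median. For LSD1 against H3K4me2 reads the factor was 1.12, and for H3K4me2 against IgG reads it was 1.28. The domains were chosen by the absence of an LSD1 call, which leaves out high LSD1 counts. The LSD1 factors are therefore held down in part by that choice. Only 14 domains had LSD1 below IgG by the single-domain ratio. Individual domains at this depth are therefore poorly ranked by their ratio, and the classes below pool the reads of many domains.

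**Figure D1:**
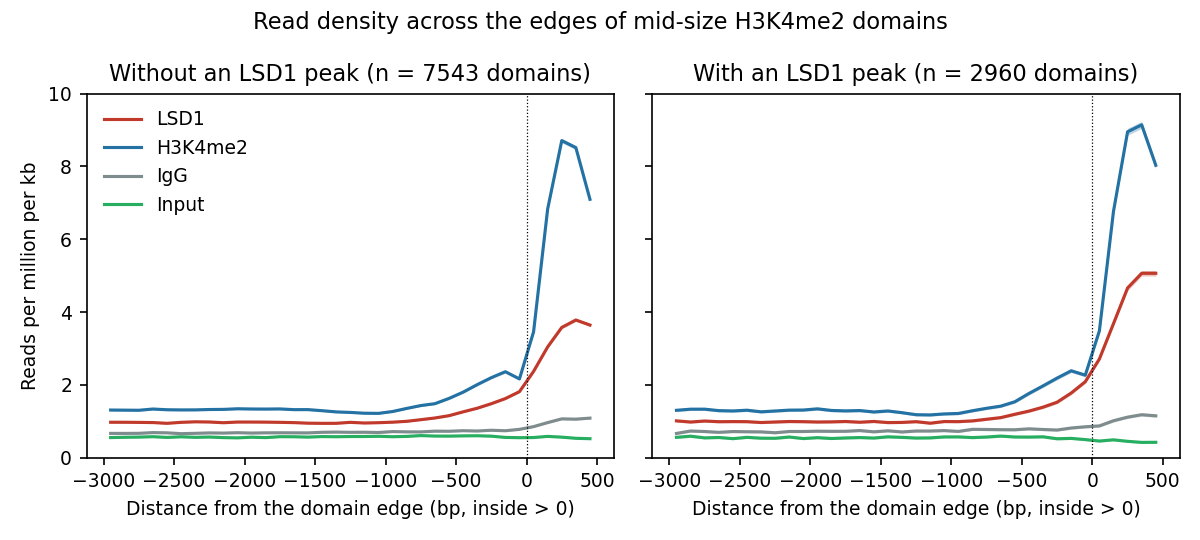
RPM per kb in steps of 100 bp, from 3 kb outside the domain edge (negative) to 500 bp inside it, both edges pooled, for the 7543 domains without an LSD1 peak (left) and the 2960 with one (right); shaded bands, mostly narrower than the lines, are exact Poisson 95% intervals. In the left panel LSD1 climbs to 3.71 RPM per kb at 300 to 500 bp inside the edge, where Input is 0.531; in the right panel LSD1 is higher and Input dips inside.

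Across the domain edge the LSD1 density rose with that of H3K4me2. At 2 to 3 kb outside the edge LSD1 stood at 0.973 RPM per kb (0.967 to 0.980), and in the 200 bp just outside it at 1.72 (1.7 to 1.74). At 300 to 500 bp inside it reached 3.71 (3.69 to 3.74). H3K4me2 over the same places was 1.32, 2.26 and 7.80 RPM per kb. IgG moved less, with 0.678, 0.762 and 1.08, and Input was 0.564, 0.556 and 0.531. In the central 200 bp of the domains LSD1 was 3.39 (3.35 to 3.43) and H3K4me2 6.04 (5.99 to 6.09), both below their values 300 to 500 bp inside the edge. In domains with a call, LSD1 at 300 to 500 bp inside the edge was 5.07 RPM per kb (5.01 to 5.12), and Input there was 0.425 (0.406 to 0.445).

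Within single domains LSD1 reads were denser where H3K4me2 reads were denser. Each domain was cut into 5 parts of equal length, which were ranked by their H3K4me2 reads and pooled over domains. LSD1 was 2.70 RPM per kb in the parts with the fewest H3K4me2 reads and then 3.02, 3.25, 3.6 and 3.90 towards those with the most. H3K4me2 itself ran from 3.86 to 9.40 by construction. IgG stayed between 1.01 and 1.07 RPM per kb over the 5 parts. LSD1 over IgG was thus 2.61 (2.56 to 2.67) in the lowest part, 3.17 (3.11 to 3.23) in the middle part and 3.63 (3.56 to 3.70) in the highest. IgG to Input ran the other way, from 2.09 (2.03 to 2.16) in the lowest part to 1.83 (1.78 to 1.89) in the highest. Against Input the LSD1 ratio was 5.47 (5.31 to 5.63) in the lowest part and 6.65 (6.48 to 6.83) in the highest.

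**Figure D2:**
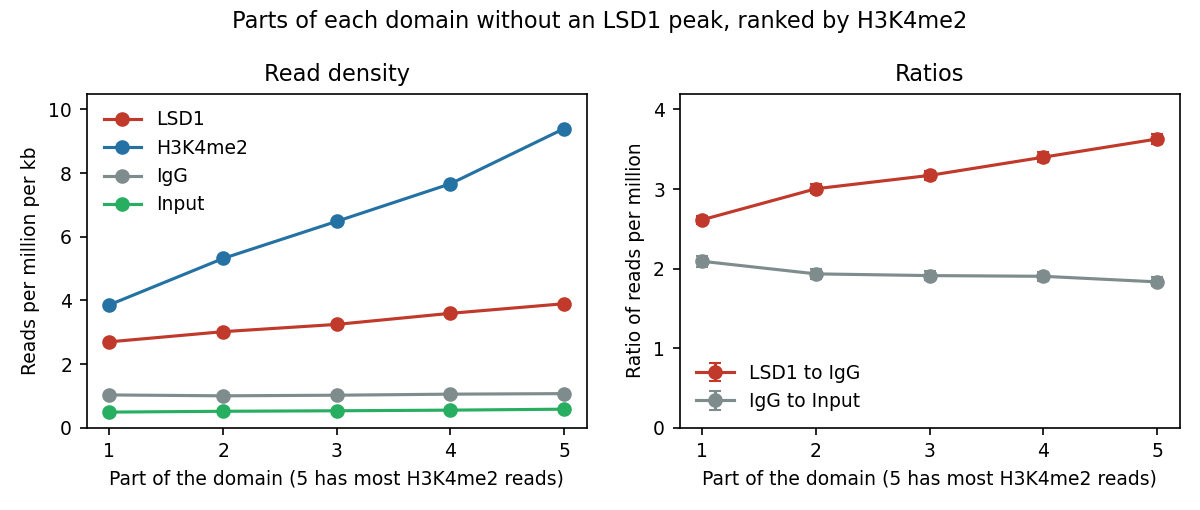
Left, RPM per kb of the 4 libraries in 5 equal parts of each of the 7543 domains without an LSD1 peak, ranked from 1 (fewest H3K4me2 reads in the domain) to 5 (most); right, the pooled LSD1 to IgG and IgG to Input ratios with exact 95% intervals. LSD1 climbs from 2.70 to 3.90 RPM per kb over the parts while IgG stays between 1.01 and 1.07.

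Of the 7543 domains, 4335 joined several H3K4me2 peaks, and the gaps between those peaks held less LSD1. In the H3K4me2 peaks of these domains the LSD1 density was 3.36 RPM per kb and in the gaps 2.27. Relative to IgG, LSD1 was 3.34 (3.30 to 3.38) in the peaks and 2.21 (2.15 to 2.26) in the gaps. IgG was level between them, at 1.01 and 1.03 RPM per kb, and H3K4me2 was 7.00 and 2.32. Input was lower in the gaps, at 0.393 against 0.528 RPM per kb in the peaks, so that the LSD1 to Input ratio differed less, with 6.37 (6.26 to 6.48) in peaks and 5.78 (5.55 to 6.03) in gaps.

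Between domains the same order held against IgG but turned against Input. The domains were split into 5 classes of equal size by H3K4me2 density, with limits at 5.59, 6.22, 6.82 and 7.57 RPM per kb. LSD1 over IgG was 2.95 (2.89 to 3.01) in the class with the least H3K4me2, then 3.07, 3.21 and 3.28, and 3.34 (3.28 to 3.4) in the class with the most. LSD1 over Input ran the other way, with 6.94 (6.73 to 7.15) in the class with the least H3K4me2 and 5.76 (5.61 to 5.91) in the class with the most. Input density itself was 0.411 and 0.660 RPM per kb in these 2 classes, and IgG density 0.966 and 1.14. The LSD1 density was 2.85 RPM per kb in the class with the least H3K4me2 and 3.80 in the class with the most. Median width fell along these classes, from 1878 to 1450 bp. Across the 7543 domains Spearman's rho with H3K4me2 density was 0.41 for LSD1, 0.12 for IgG and 0.25 for Input. The domains share these libraries, the counts of IgG and Input are low, and rho is given as a description.

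**Figure D3:**
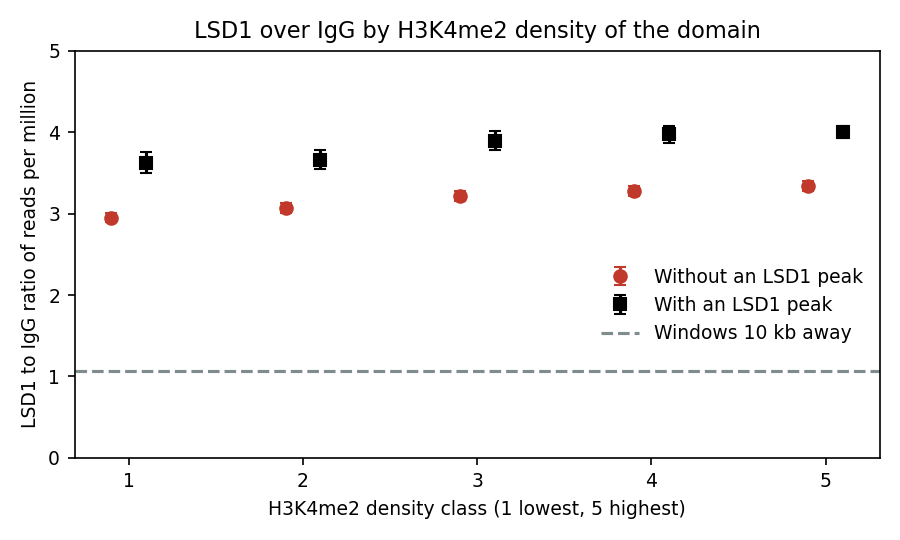
Pooled LSD1 to IgG ratio of RPM for domains without an LSD1 peak (circles) and with one (squares) in 5 classes of H3K4me2 density, with exact 95% intervals; the dashed line is the ratio in windows 10 kb away. Domains without a call run from 2.95 to 3.34 (the order turns against Input), all above the windows at 1.07 and below the domains with a call.

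Against IgG the ratio hardly changed with the other properties of the domains. Domains of 1 to 1.5 kb had 3.19 (3.15 to 3.24), those of 1.5 to 2 kb 3.13 (3.08 to 3.18), those of 2 to 3 kb 3.17 (3.12 to 3.22) and those of 3 to 5 kb 3.19 (3.13 to 3.26). Domains made of a single H3K4me2 peak gave 3.25 (3.20 to 3.30), those of 2 peaks 3.12 (3.08 to 3.16), those of 3 peaks 3.15 (3.07 to 3.22) and the 108 domains of 4 or more peaks 3.16 (3.0 to 3.32). The nearest LSD1 peak lay a median of 60.3 kb away. In the 520 domains with one within 5 kb the ratio was 3.16 (3.06 to 3.26), and in the 2878 domains at 100 kb or more it was 3.20 (3.16 to 3.25). Over Input, LSD1 was 5.61 (5.37 to 5.86) within 5 kb and 6.35 (6.22 to 6.49) at 100 kb or more, and it was 6.44 (6.29 to 6.59) in domains of 1 to 1.5 kb and 5.51 (5.35 to 5.67) in those of 3 to 5 kb. The LSD1 density was 3.42 RPM per kb within 5 kb of a called peak and 3.19 at 100 kb or more, and Input was 0.611 and 0.502 at these distances, so that level and ratio ran in different directions. Among the 19 autosomes the ratio lay between 3.03 on chromosome 15 and 3.30 on chromosome 13, with a median of 3.16. The value of chromosome 15 includes chr15:74915870-74917567, with 331 LSD1 and 259 IgG reads, and was not recomputed without that domain.

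The domains without a call were then compared with domains holding an LSD1 peak of matched width and H3K4me2 reads. Of the 7543 domains, 7512 shared a class of width and H3K4me2 reads with 2948 domains with a call, which were weighted to them. Median width was then 1598.5 bp without and 1601 bp with a call, and median H3K4me2 reads were 66 and 67. The domains without a call had a median of 31 LSD1 reads, against 41 in the matched domains. Their LSD1 density was 3.29 RPM per kb, against 4.29 with a call. Relative to IgG, LSD1 reached 3.18 (3.15 to 3.21) without a call and 3.92 (3.86 to 3.98) with one, a quotient of 0.811 (0.797 to 0.826). Since the LSD1 peaks were called on these reads, the sign of this difference is fixed in part by the choice of domains. Its size also follows in part from that choice, which matching on width and H3K4me2 reads does not remove.

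The matched domains were also compared outside their called peaks. When the LSD1 peaks and 200 bp on either side were left out, 51.0% of the matched width remained. As the peaks were called on these LSD1 reads, leaving them out lowers the matched domains by construction, and the values are given as a description. There the LSD1 density was 3.17 RPM per kb, against 3.29 in the domains without a call. Over IgG, LSD1 stood at 3.18 (3.15 to 3.21) in the domains without a call and 3.07 (3.0 to 3.14) in the remainder of the matched domains, so the order turned against IgG, with a quotient of 1.04 (1.01 to 1.06). H3K4me2 was also lower in that remainder, at 5.90 RPM per kb against 6.55 in the domains without a call. The order did not turn relative to H3K4me2, where LSD1 was 0.502 (0.50 to 0.505) without a call and 0.536 (0.530 to 0.543) in the remainder. Nor did it turn against Input, with 6.15 (6.08 to 6.23) without a call and 7.24 (7.02 to 7.48) in the remainder.

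Within domains, the strongest single place was compared by taking the 500 bp with the most LSD1 reads. The median was 15 LSD1 reads (quartiles 13 and 18) in domains without a call and 22 (20 and 24) in domains with one. With matched width and H3K4me2 reads these medians were 15 and 21. The densest 500 bp of the IgG library held a median of 5 IgG reads without and with a call, not scaled to that library's lower depth. This level is raised, as in LSD1, by taking the highest of many windows. The distributions overlapped. Of the domains without a call, 2768 (36.7%, exact interval 35.6 to 37.8) reached 17 LSD1 reads, the lowest 5% mark of domains with a call. A further step up, 855 (11.3%) reached the lower quartile of 20 reads and 242 (3.21%) the median of 22.

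**Figure D4:**
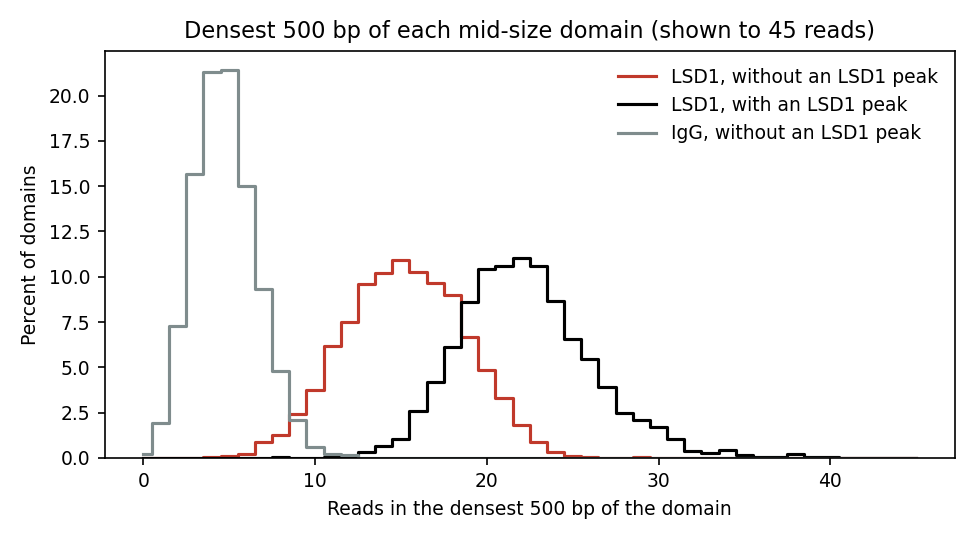
Percent of domains by the number of reads in their densest 500 bp, for LSD1 in the 7543 domains without and the 2960 domains with an LSD1 peak, and for IgG in the domains without one; a few domains beyond 45 reads are not drawn. The LSD1 curve of domains without a call has its median at 15 reads, between that of IgG at 5 and that of called domains at 22, and overlaps that of called domains. Read counts are not scaled to library depth, which is lower for IgG.

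The share of mid-size domains with a call rose steeply with that count. It was 3.04% at 14 to 15 LSD1 reads in 500 bp, 11.8% at 16 to 17, 26.9% (24.8 to 29.2) at 18 to 19, 64.5% (62.5 to 66.5) at 20 to 24 and 97.4% at 25 to 29. The zone from 16 to 24 reads therefore held domains of both kinds with nearly the same LSD1 reads.

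In that zone the domains without and with a call differed in Input reads and not consistently in IgG reads. At 20 to 24 LSD1 reads, the 836 domains without a call had a mean of 1.46 Input reads in the window (1.38 to 1.54) and the 1520 with one 0.705 (0.664 to 0.749), a quotient of 2.07 (1.90 to 2.25). IgG means were 2.79 (2.68 to 2.91) without and 2.90 (2.81 to 2.98) with a call, a quotient of 0.964 (0.917 to 1.01). No Input read lay in the window in 25% of the domains without a call and in 49.6% of those with one. At 18 to 19 LSD1 reads the quotient was 2.45 (2.11 to 2.84) for Input and 1.10 (1.03 to 1.18) for IgG. At 16 to 17 reads it was 2.46 (1.96 to 3.11) for Input and 0.957 (0.877 to 1.05) for IgG. The densest 200 bp also held fewer LSD1 reads without a call. At 18 to 19 LSD1 reads its mean was 10.27 without and 11.31 with a call, while the 500 bp means were 18.43 and 18.58. At 20 to 24 reads the 200 bp means were 11.3 and 12.3. The 500 bp means there also differed, at 20.96 and 21.93, so that gap goes in part with fewer reads. As the peaks were called on these LSD1 reads, the difference follows in part from the choice of domains. H3K4me2 reads in the window were alike at 20 to 24 LSD1 reads, with means of 29.4 and 29.1. The control used for calling the LSD1 peaks is not given in the sources used here, and the part of Input reads in the absence of a call was not tested.

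**Figure D5:**
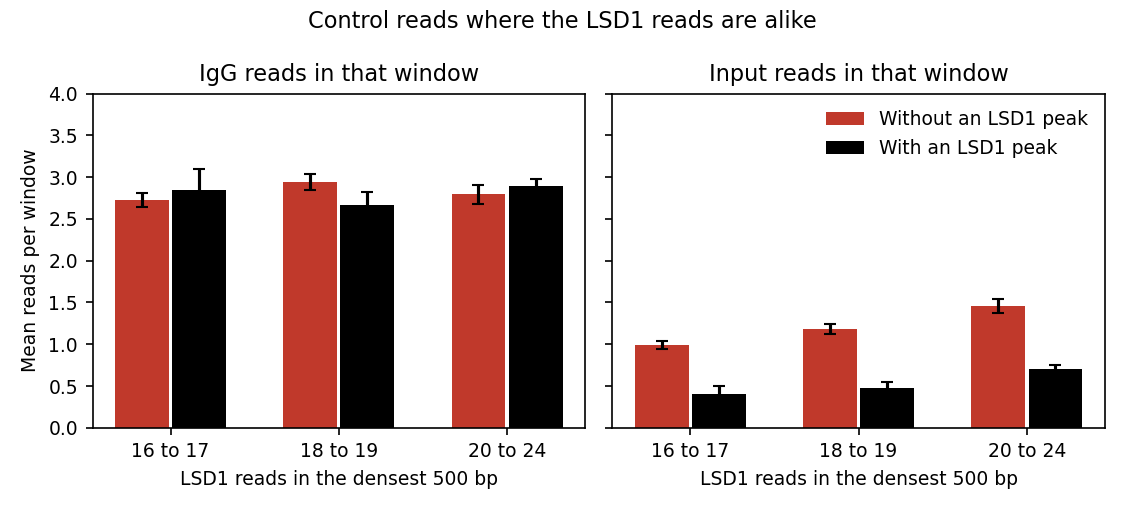
Mean IgG reads (left) and Input reads (right) in the densest 500 bp of LSD1 for domains without (red) and with (black) an LSD1 peak, at 16 to 17, 18 to 19 and 20 to 24 LSD1 reads; bars are exact Poisson 95% intervals. At 20 to 24 LSD1 reads the Input means are 1.46 and 0.705, while the IgG means are 2.79 and 2.90.

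Over whole domains the same contrast stood between the controls. Input was 0.535 RPM per kb in domains without a call, against 0.390 in those matched on width and H3K4me2 reads, while IgG was 1.03 and 1.09. IgG exceeded Input 1.93-fold (1.91 to 1.96) without a call and 2.80-fold (2.73 to 2.88) in the matched domains. Against Input, LSD1 was 6.15 (6.08 to 6.23) without and 11.0 (10.7 to 11.3) with a call, a quotient of 0.559 (0.544 to 0.575), lower than the 0.811 found against IgG. For H3K4me2 the quotient was 1.04 (1.03 to 1.06) against IgG and 0.721 (0.701 to 0.741) against Input. Since H3K4me2 reads were matched, these quotients restate the IgG and Input densities and are no separate observation. When all 10503 mid-size domains were ordered by Input density into 5 classes, the share with a call was 35.7% (33.6 to 37.8) in the lowest class and 16.9% (15.4 to 18.6) in the highest. Ordered by IgG density it ran the other way, 21.2% (19.5 to 23.0) in the lowest class and 33.0% (31.0 to 35.1) in the highest. By H3K4me2 density the share with a call rose from 17.8% (16.1 to 19.5) to 44.1% (42.0 to 46.3).

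Width also went with calling. An LSD1 peak was present in 20.8% of domains of 1 to 1.5 kb and in 43.7% of those of 3 to 5 kb. The part that room for a peak has in this was not tested. By chromosome the share with a call lay between 20.1% on chromosome 14 (15.9 to 24.9) and 33.8% on chromosome 7 (30.7 to 37.0). The LSD1 to IgG ratio of the domains without a call was 3.10 (2.96 to 3.25) on chromosome 14 and 3.26 (3.16 to 3.36) on chromosome 7.

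Single domains show the range behind these sums. The 10 highest LSD1 to IgG ratios among the 4176 domains with at least 30 LSD1 reads belonged to domains with 31 to 55 LSD1 reads and 0 to 2 IgG reads, a ranking that favours low IgG counts. The first lay at chr11:115560268-115561483 in mm9, with 34 LSD1 reads, 48 H3K4me2 reads, no IgG read and 2 Input reads. The exact interval of LSD1 over IgG there began at 7.11 and had no upper end, since IgG was at 0. Its densest 500 bp held 21 LSD1 reads, near the median of called domains. The domain at chr9:108983741-108985936 had the most reads of the 10, with 55 LSD1, 80 H3K4me2, 2 IgG and 6 Input reads, a ratio of 22.4 (5.92 to 190). At chr3:19133261-19135991 the counts were 40 LSD1, 118 H3K4me2, 1 IgG and 4 Input reads, and the nearest LSD1 peak was 458 kb away.

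At the other end, the 10 lowest ratios among the 4670 domains with at least 60 H3K4me2 reads lay between 0.978 and 1.13. In 9 of them 18 to 25 LSD1 reads stood against 13 to 20 IgG reads. The lowest, at chr9:37295361-37296722, had 18 LSD1, 68 H3K4me2, 15 IgG and 5 Input reads, a ratio of 0.978 (0.466 to 2.09) for LSD1 and 3.36 (1.90 to 6.33) for H3K4me2. At chr19:5823241-5825277 the counts were 24 LSD1, 74 H3K4me2, 20 IgG and 5 Input reads. The LSD1 intervals of all 10 ended below the pooled ratio of 3.17, but the domains were picked as the extremes of many low counts. The exception in this group was chr15:74915870-74917567, high in every library with 331 LSD1, 404 H3K4me2, 259 IgG and 170 Input reads, at an LSD1 to IgG ratio of 1.04 (0.883 to 1.23).

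That domain also had the most H3K4me2 reads of all 7543. The next 4 were wide domains of 4322 to 4742 bp with 256 to 275 H3K4me2 reads and 9 to 17 Input reads. Of these, chr11:95841102-95845843 held 124 LSD1, 275 H3K4me2, 23 IgG and 17 Input reads. Its LSD1 to IgG ratio was 4.39 (2.80 to 7.19), and its densest 500 bp held 22 LSD1 reads. At chr4:133453025-133457554 the counts were 85 LSD1, 269 H3K4me2, 25 IgG and 9 Input reads, with a ratio of 2.77 (1.76 to 4.52).

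Domains on either side of each limit of the rule were compared last. Ties in width were broken by chromosome and start, so the domains named at a limit need not be the only ones of their width. At the lower limit, 3 domains of 1000 bp held 19 to 27 LSD1 reads and 0 to 3 IgG reads. The 3 domains taken just below that limit, each of 999 bp, held 15 to 19 LSD1 reads and 4 to 9 IgG reads. At the upper limit, the 3 widest members, of 4959 to 4995 bp, held 72 to 83 LSD1 reads and 14 to 26 IgG reads. The first 3 domains left out for their width, of 5001 to 5078 bp, held 96 to 99 LSD1 reads and 16 to 22 IgG reads. The 3 members nearest to an LSD1 peak lay 18, 44 and 73 bp from one and held 17 to 27 LSD1 reads. The 3 domains left out for the smallest overlaps, of 7, 10 and 25 bp, held 27 to 60 LSD1 reads over 1217 to 2481 bp.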

How the data were processed

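The submitters' processing notes name mm9 as the build. How reads were aligned and filtered, and how and against which control peaks were called, is not given in the sources used here. The authors deposited each library as counts of 1 per aligned 36-base read. Within a library, 0 reads shared their start and strand with another. The deposited peak lists of IgG, LSD1 and H3K4me2 hold positions only, which is the data recorded as other than a measured value. Each list belongs to 1 library.

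Read starts were moved 100 bp along their strand and counted in regions. Pairs of opposite strands in these domains were most frequent at 110 to 119 bp in LSD1 and H3K4me2, and at 40 to 49 bp in IgG. In LSD1 the maximum was narrow, with 14584 pairs against 14496 at 40 to 49 bp. Domains overlapped a peak where they shared at least 1 bp. Ratios are of reads per 1000000 reads, with exact binomial intervals conditional on both counts, and quotients of ratios carry delta-method intervals on the log scale. Matching used classes of width (250 bp to 1 kb wide) and of H3K4me2 reads (steps of 0.25 on the log2 scale). The ratio and call functions were tested on simulated data. The named domains followed the rule of the 10 highest and 10 lowest LSD1 to IgG ratios, the 5 with most H3K4me2 reads and 3 on either side of each limit. From each set of named domains 1 to 3 are printed in full. The members, classes and tests were chosen with earlier results of these data known, and the parts within domains, the comparison at equal LSD1 reads, the shares with a call by density and the spread beyond counting were added after values were seen. No sequence is printed, since no mm9 genome was used here. Counting ran in Python 3.11.15 with numpy 2.4.6 and pandas 2.3.3, intervals came from scipy 1.17.1, and plots from matplotlib 3.10.9.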

Additional observations from a re-analysis of the deposited data

How the results depend on the processing

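The 6 results were recomputed under other settings, which gave 44 values. Among them 25 stayed within the interval of the reported value (a count within 1.5 times), 18 moved beyond it and 1 turned. Those that stayed include the quotients to windows and to matched domains when scaled to reads outside peaks. Library totals cancel in these quotients, so they could not change there. The turned value is the quotient to matched domains, 1.04 once the LSD1 peaks and 200 bp around them were left out. With 1 nearest domain for each with a call, over 2876 pairs, it was 0.830. With Input in place of IgG, the LSD1 ratio was 6.12, the H3K4me2 ratio 12.2, the quotient to windows 5.02, the quotient to matched domains 0.559 and the share past 2-fold 98.4%. Scaled to reads outside peaks, the LSD1 ratio was 3.43, the H3K4me2 ratio 7.63 and the share 91.6%. Joining within 0.5 kb gave 3.24 and 6.59 for the LSD1 and H3K4me2 ratios, and joining within 2 kb gave 3.09 and 6.03, with a quotient to windows of 2.91. The share was 86.1% with 1 read added, 85.5% with at least 5 IgG reads, 52.7% past 3-fold and 84.2% by an interval above 1. Some of these moves follow from the setting itself. A 3-fold limit is stricter than 2-fold, and another control or scale multiplies each pooled ratio by a fixed factor. The cause of the other moves was not tested. Unmoved starts, a margin of 1 kb around LSD1 peaks and leaving out high Input changed nothing beyond the intervals. The margin kept 7512 of the 7543 domains, so its values had little room to move. No paired analysis was possible because the design has 1 library for each antibody or control. With a median of 8 IgG and 3 Input reads per domain, ratios of single domains are not resolved at this depth.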

Other observations

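The 121 domains without a call whose Input density was above 3 times the median (1.60% of the 7543) covered 165 kb. Their LSD1 to IgG ratio was 2.59 (2.43 to 2.76) and their H3K4me2 to IgG ratio 5.10 (4.80 to 5.42). IgG lay below Input in them, at 0.806 (0.744 to 0.873) of its level. Among domains with an LSD1 peak, 10 (0.338%) had such Input densities. Only 3 domains without a call held 30 or more LSD1 reads in 500 bp, and they were named after their values were seen. They were chr15:74915870-74917567, chr11:53953434-53954463 and chr11:3025259-3027772, with 170, 59 and 37 Input reads and LSD1 to IgG ratios of 1.04, 1.77 and 1.49. All 3 are among the 121 domains with high Input. They held 331, 128 and 117 LSD1 reads and 259, 59 and 64 IgG reads, enough to lower the pooled ratios of the 121. Those ratios were not recomputed without them and do not describe the typical domain of that class.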
